A study of Mus musculus with 36 samples.

Results

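The genes of the epidermal growth factor (EGF) receptor family and their ligands were followed through control submandibular glands of the mouse and through glands of double-mutant mice, which develop squamous cell carcinoma. The members were a list of named genes: the receptor genes Egfr, Erbb2 and Erbb3 and the ligand genes Areg, Hbegf, Tgfa and Btc, 7 of the 29219 genes with at least 1 unique molecular identifier (UMI) in the Drop-seq libraries. Drop-seq captures single cells with barcoded beads in droplets and counts the 3′ end of each transcript once per UMI. The libraries came from mice of the C57BL/6 strain, with 1 of 26 glands per library, and cells were sorted for exclusion of the dye DAPI before methanol fixation. Control mice carried K14-Cre and the R26-EYFP reporter (6 glands at P40 and 6 at P90). Double-mutant mice carried, in addition, a gain-of-function β-catenin allele and were homozygous for a floxed, loss-of-function Bmpr1a allele (7 glands at P40 and 7 at P90). Recombination depended on the keratin 14 promoter, so that both genes were changed in keratin 14-expressing cells and their progeny only, while other cells of the same gland kept the unrecombined alleles. RNA from 4 later CITE-seq libraries at P70 (2 glands per genotype) and 2 bulk RNA-seq libraries (control at P70, double-mutant at P100) were described separately.

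Receptors of this family are tyrosine kinases at the cell surface. EGFR binds EGF, amphiregulin (Areg), transforming growth factor-α (Tgfa), heparin-binding EGF-like growth factor (Hbegf) and betacellulin (Btc). ERBB2 has no known soluble ligand and acts as a dimerisation partner, and ERBB3 binds neuregulins and signals through its partners because its own kinase is weak. The ligands are made as membrane-anchored precursors and are released by ADAM metalloproteases, after which the receptors signal through MAP kinases. The mouse submandibular gland is a classical source of EGF, which is made by its granular ducts and is more abundant in males.

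In the mm10 assembly (GRCm38, annotated with GENCODE), Areg spans chr5:91139599-91148432 on the plus strand with 6 exons in its longest model. Btc lies on the same chromosome at chr5:91357261-91402994 on the minus strand, 208828 bases beyond the end of Areg. Tgfa was annotated at chr6:86195223-86275719, Egfr at chr11:16752203-16918158 and Erbb2 at chr11:98412470-98437716, all on the plus strand. Erbb3 was annotated at chr10:128567523-128589652 on the minus strand. The promoters of the 3 genes that rose in double-mutant glands were read from 250 bases before to 50 bases after the annotated start (RefSeq, GRCm38.p6, 5′ to 3′ on the gene's strand), and are given with matches to the motifs searched in capitals.
Areg, chr5:91139349-91139648, plus strand: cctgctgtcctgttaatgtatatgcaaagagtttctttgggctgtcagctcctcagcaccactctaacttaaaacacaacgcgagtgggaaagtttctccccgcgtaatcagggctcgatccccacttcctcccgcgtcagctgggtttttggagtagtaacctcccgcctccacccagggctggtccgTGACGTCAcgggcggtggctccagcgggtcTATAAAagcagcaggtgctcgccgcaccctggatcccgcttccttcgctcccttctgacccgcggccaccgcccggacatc
Tgfa, chr6:86194972-86195271, plus strand: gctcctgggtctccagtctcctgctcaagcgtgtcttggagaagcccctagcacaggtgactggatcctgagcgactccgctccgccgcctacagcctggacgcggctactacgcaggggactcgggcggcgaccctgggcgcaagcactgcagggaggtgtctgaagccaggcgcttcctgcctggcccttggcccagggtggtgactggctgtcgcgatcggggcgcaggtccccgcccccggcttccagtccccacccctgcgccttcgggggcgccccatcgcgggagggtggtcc
Egfr, chr11:16751953-16752252, plus strand: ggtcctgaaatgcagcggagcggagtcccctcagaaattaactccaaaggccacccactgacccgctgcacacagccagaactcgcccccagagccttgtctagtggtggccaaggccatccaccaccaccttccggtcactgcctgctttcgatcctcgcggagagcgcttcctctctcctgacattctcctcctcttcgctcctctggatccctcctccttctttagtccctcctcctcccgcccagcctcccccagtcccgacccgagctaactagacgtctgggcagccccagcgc
The search covered both strands for the cAMP response element (CRE, TGACGTCA), the AP-1 site (TGACTCA), the TCF/LEF site through which β-catenin acts (CTTTGAT) and the TATA box (TATAAA). The Areg promoter held a CRE at bases 190 to 197 of the printed sequence, beginning 61 bases before the start, and a TATA box at bases 220 to 225, beginning 31 bases before the start. No match to any of the 4 motifs was found in the windows of Tgfa, Egfr, Erbb2 or Btc. Among 32851 promoters of the same length, 1.79% held the CRE, 5.20% the AP-1 site, 3.73% the TCF/LEF site and 13.6% the TATA box. A match is a description of these letters and was not tested as a binding site.

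The 23346 cells that passed the filters gave 650301 to 6994504 UMIs per gland. The median UMI count per cell was 2892 (control) and 1570 (double-mutant) at P40, against 1341 and 766.5 at P90. Cells of double-mutant glands thus held fewer UMIs at both stages. UMIs per cell also differed between cell types, with medians of 5821.5 in the largest cluster of saliva-secreting acinar cells and 638 in the larger myeloid cluster. Acinar cells were at a mean of 38.2% of control and 22.5% of double-mutant cells. The part of the cell mix in the lower UMI counts was not tested. In 2 double-mutant libraries, replicate 1 at P40 and replicate 5 at P90, the Xist and Y-linked UMIs went against the sex label. Both belonged to batch 11. The genotype fit, the genotype difference at P90, the test between stages, the sex fit and the highest cell types are given with and without them. Genotype differences at P40, differences between P40 and P90 within a genotype and cell frequencies are given only with them. In all, 14 cell barcodes occurred in more than 1 library. Bmpr1a stood at 21.0 ± 2.97 normalised CPM (UMI counts scaled to a common library size) in control (SD, n = 12) and 18.7 ± 4.33 in double-mutant glands (SD, n = 14). The floxed allele was recombined only in the keratin 14 lineage, and this 3′ count over all cells does not check the genotype labels.

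To ask whether the family differed between genotypes, UMIs were summed per gland and fitted with edgeR across all genes, with sex and stage as covariates. Areg, Tgfa and Egfr were higher in double-mutant glands, and Erbb2, Erbb3, Hbegf and Btc did not pass the test. All 7 genes passed the filter on low counts, and 3 of 7 were called at an adjusted p under 0.05, beside 22% of the 10488 genes tested. All 3 calls were in the direction of double-mutant glands, in which 14.4% of all genes tested were called. The median log2 fold change was 0.38 over the 3 receptors, which is the value of Erbb2, a gene that was not called. It was -0.03 over the 5 ligand genes tested, which were the ligand members and Egf, and 0.02 over all genes tested.

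Areg encodes amphiregulin, an EGFR ligand. Its normalised CPM ran from 0 through a median of 0.453 to 2.59 in control glands at P40 and from 0 through 1.80 to 8.44 in those at P90. Double-mutant glands ran from 2.35 through 5.71 to 8.40 at P40 and from 2.75 through 10.1 to 32.3 at P90. All 14 double-mutant glands lay above the control median, and 5 of 14 lay above the highest control gland, so that the genotypes still overlapped. The mean was 1.81 ± 2.34 in control (SD, n = 12) and 9.20 ± 8.02 in double-mutant glands (SD, n = 14), and the fitted difference was 2.26 ± 0.46 on the log2 scale (SE; adjusted p = 0.00157). These values rested on 0 to 17 UMIs per control gland and 7 to 37 per double-mutant gland.

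Tgfa encodes transforming growth factor-α. It was at 0.502 to 3.08 normalised CPM in control glands, with medians of 1.55 at P40 and 1.76 at P90. Double-mutant glands ranged from 1.56 through 3.73 to 5.34 at P40 and from 1.70 through 5.23 to 14.5 at P90. All 14 double-mutant glands exceeded the control median and 8 exceeded the highest control gland. The means were 1.70 ± 0.84 (SD, n = 12) and 4.80 ± 3.62 (SD, n = 14), with a fitted difference of 1.30 ± 0.35 on the log2 scale (SE; adjusted p = 0.0109) from only 1 to 23 UMIs per gland. When the 2 libraries that went against their sex label were left out, Tgfa no longer passed the filter and was not tested.

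Egfr encodes the receptor itself. Control glands held 3.92 to 7.47 normalised CPM at P40 (median 5.47) and 0.993 to 7.32 at P90 (median 3.75). Double-mutant glands held 4.76 to 21.5 at P40 (median 8.81) and 2.55 to 18.8 at P90 (median 9.38). The highest control gland was exceeded by 10 of 14 double-mutant glands. The means were 4.93 ± 2.14 (SD, n = 12) and 9.70 ± 5.26 (SD, n = 14), and the fitted difference was 0.86 ± 0.25 on the log2 scale (SE; adjusted p = 0.0182). In the 19 glands of the 5 batches that held both genotypes, with batch as a term, the differences were 2.81 for Areg (adjusted p = 0.0078), 1.43 for Tgfa (adjusted p = 0.0493) and 1.199 for Egfr (adjusted p = 0.0274), beside 18.1% of all genes called. Without the libraries against their sex label, those of Areg and Egfr were 2.25 and 0.90 (adjusted p = 0.00381 and 0.0260), beside 14.8% of all genes called.

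**Figure D1:**
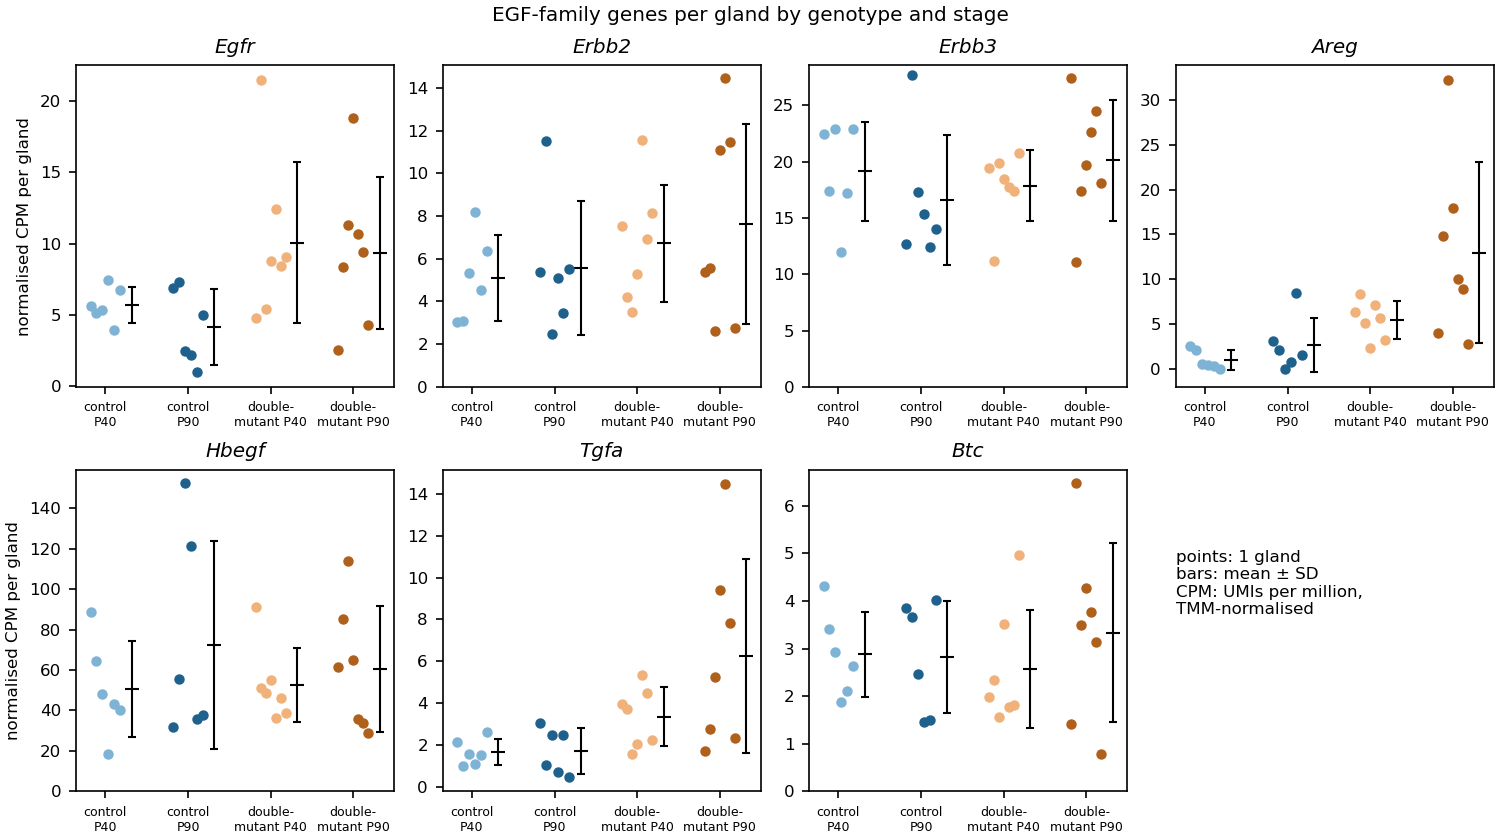
Normalised CPM (TMM-normalised UMI counts; y axis) of each gene in the 26 glands by genotype and stage (x axis); each point is 1 gland and the bars beside the points are the mean ± SD. Double-mutant glands sit above the control median in 14 of 14 cases for Areg and Tgfa, whereas the groups lie over each other for Erbb3, Hbegf and Btc.

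Of the genes that were not called, Hbegf, of the 4 ligand genes the one with the most UMIs, was at 18.3 to 153 normalised CPM in control (median 45.7) and 28.7 to 114 in double-mutant glands (median 49.98). Erbb3 was at 11.9 to 27.7 in control and 11.1 to 27.5 in double-mutant glands, with medians of 17.3 and 19.0. For these genes no double-mutant gland lay above the highest control gland. Erbb2 had medians of 5.22 in control and 6.23 in double-mutant glands, and Btc of 2.78 and 2.73. The fitted log2 differences were 0.38 ± 0.27 for Erbb2 (SE; adjusted p = 0.303), 0.09 ± 0.16 for Erbb3 (adjusted p = 0.697), -0.03 ± 0.27 for Hbegf (adjusted p = 0.952) and -0.07 ± 0.27 for Btc (adjusted p = 0.889). The 95% intervals of these differences ran from -0.15 to 0.92 for Erbb2, -0.21 to 0.40 for Erbb3, -0.55 to 0.49 for Hbegf and -0.60 to 0.47 for Btc, and differences of these sizes were not excluded.

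Scaling by library totals in place of TMM moved the median log2 fold change of all genes from 0.02 to 0.68, with 53.2% of genes called, 5532 higher and 51 lower in place of 1515 and 793. On that scale Areg was at 2.96, Tgfa at 2.11 and Egfr at 1.68, each above the median of all genes. Erbb2 and Erbb3 were called as well (log2 fold change of 1.19 and 0.72), whereas Hbegf and Btc were not and stood at 0.61 and 0.56, under the median of all genes.

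By stage, the genotype difference of Areg was 2.43 ± 0.68 on the log2 scale at P40 (SE; adjusted p = 0.0637) and 2.09 ± 0.62 at P90 (adjusted p = 0.0397). For Tgfa it was 0.89 ± 0.48 at P40 (adjusted p = 0.271) and 1.71 ± 0.50 at P90 (adjusted p = 0.0362), and for Egfr 0.65 ± 0.34 (adjusted p = 0.265) and 1.08 ± 0.38 (adjusted p = 0.0710). Thus none of the 7 genes was called at P40, where 1.36% of 11420 genes were, and Areg and Tgfa were called at P90, where 8.07% were. The calls at P90 depended on single glands. Areg lost its call when control replicate 1, 2, 3, 4 or 6 or double-mutant replicate 2, 3, 5 or 6 of P90 was left out (log2 fold change 1.69 to 2.18, adjusted p = 0.0597 to 0.0900). Tgfa lost its call without control replicate 2, 4 or 6 or double-mutant replicate 5 or 6 of P90 (1.40 to 1.599, adjusted p = 0.0706 to 0.107). Without both libraries against their sex label neither was called at P90 (Areg 2.14, adjusted p = 0.0696, and Tgfa 1.40, adjusted p = 0.115), beside 3.31% of all genes called. At P40, Areg gained a call without control replicate 1 or 2 or double-mutant replicate 4 of P40, or without double-mutant replicate 7 of P90 (2.43 to 2.93, adjusted p = 0.0317 to 0.0448), and Egfr gained one at P90 without double-mutant replicate 1 or 7 of P90 (1.23 to 1.25, adjusted p = 0.0216 to 0.0347).

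The test of the difference between stages called none of the 7 genes (interaction for Areg -0.35 ± 0.84, Tgfa 0.82 ± 0.70 and Egfr 0.43 ± 0.50 on the log2 scale, SE), and 1 of 11420 genes overall (0.00876%), so a stage-specific genotype difference was not shown. Without the libraries against their sex label these values were -0.23, 0.60 and 0.39, and 0 of 11122 genes were called (462 at an unadjusted p under 0.05). Between P40 and P90, Areg differed by 1.53 ± 0.74 among control glands (SE; adjusted p = 0.279) and by 1.18 ± 0.54 among double-mutant glands (SE; adjusted p = 0.473), neither of which passed the test. In control glands 5.04% of genes were called between stages. In double-mutant glands edgeR called 0 genes (0%), with 1122 at an unadjusted p under 0.05, and DESeq2 called 28 genes (0.245%) and none of the 7. Control glands of P40 and P90 never shared a batch, and the part of batch in their difference cannot be told apart from that of stage.

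By sex label, Egfr stood at 6.52 ± 0.98 normalised CPM in control females (SD, n = 6) and 3.34 ± 1.73 in control males (SD, n = 6). Double-mutant glands labelled female held 11.6 ± 5.70 (SD, n = 8) and those labelled male 7.15 ± 3.58 (SD, n = 6), and each of these groups held 1 of the libraries against their sex label. Without them the means were 11.7 ± 6.15 (SD, n = 7) and 7.63 ± 3.79 (SD, n = 5). Males were thus lower than females by 0.83 ± 0.26 on the log2 scale in the fit, with an unadjusted p of 0.00315 and an adjusted p of 0.315 by edgeR, which did not pass the test, and by 0.78 ± 0.27 (SE; adjusted p = 0.241) without the libraries against their label. None of the 7 genes was called for sex, beside 0.362% of 10488 genes, and none of the 6 tested without those libraries, beside 0.624%.

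For the cell types, clusters were named from marker lists after the 68 genes of the EGF pathway list had been held out of the genes used for clustering. Levels are CPM of the type's own UMIs, pooled over the 26 glands, with exact binomial intervals that cover counting error only. They describe the same cells that were clustered, and no type was tested against the rest. Each named type rested on its own markers, such as 7 of 7 for fibroblasts, 9 of 9 for T/NK cells and 12 of 12 in the larger myeloid cluster. The cells named CSC-like after the study's cancer stem cells had 9 of 9, among them Axin2, Lef1 and Dkk4. Other lists were met in part, with 7 of 10 for Klk1 duct cells and 4 or 5 of 7 in the acinar clusters. Acinar clusters were compared with the cells of named clusters in place of all other cells.

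Egfr was highest in the basal cells named basal Wif1 (111.9 CPM, 95% interval 86.7 to 142.1), fibroblasts (89.99), CSC-like cells (82.5) and myoepithelial cells (75.2), followed by the other basal cells (41.0). Wif1 was a leading gene of the smaller cluster of the basal Wif1 type (176 cells) and not of the larger (615 cells). With a coarser clustering (resolution 0.7) this type took in 1368 cells of 26 glands, and no separate basal type was named. Acinar cells, the cells that secrete saliva, held 1.02 CPM. Per gland, the means were 113 ± 72.7 in fibroblasts (SD, n = 14 glands), 104 ± 98.0 in basal Wif1 cells (n = 11), 99.8 ± 118 in myoepithelial cells (n = 14) and 63.3 ± 80.3 in CSC-like cells (n = 8), and no neighbours in this order differed by more than their SD. An Egfr UMI was seen in 9.90% of fibroblasts and 6.57% of basal Wif1 cells (median depth 801.5 and 539 UMIs), against 0.574% of acinar cells (median depth 3897 UMIs) and 0 of 462 T/NK cells (median depth 594.5 UMIs), which allows up to 0.649% of such cells with a UMI. These shares count cells with a UMI and not cells that express the gene, and the share in acinar cells, which were read more deeply, stands here as the background. After cells were thinned to 500 UMIs, the shares were 4.10% in fibroblasts, 4.12% in basal Wif1 cells, 6.06% in CSC-like cells and 0.0292% in acinar cells.

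The other receptor genes were highest in epithelial types. Erbb2 was highest in luminal Clu cells (46.4 CPM, 95% interval 31.5 to 65.8), which express clusterin and lactotransferrin, and in basal Wif1 cells (28.4), and stood at 2.32 in acinar cells. Per gland the mean of Erbb2 in luminal Clu cells was 40.1 ± 41.7 (SD, n = 10), and it was 85.6 ± 107 with a coarser clustering (resolution 0.7), so that this level depended on how the type was drawn. Erbb3 was highest in luminal Clu cells (71.8, 95% interval 52.9 to 95.2), Smgc/Esp4 duct cells (66.4) and CSC-like cells (60.0), and at 2.26 in T/NK cells and 3.83 in pericytes and smooth muscle. Per gland the means of Erbb3 were 73.0 ± 34.3 in luminal Clu cells (SD, n = 10) and 72.2 ± 51.6 in Smgc/Esp4 duct cells (SD, n = 26), which did not differ beyond their spread.

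Among the ligands, Areg was highest in myeloid cells (67.6 CPM, 95% interval 57.9 to 78.4) and CSC-like cells (63.7, 37.1 to 102), with 34.0 in T/NK cells, 26.7 in basal Wif1 cells and 0.174 in acinar cells. The intervals of myeloid and CSC-like cells overlapped. Of 279 Areg UMIs in all, 174 lay in myeloid cells. A UMI of Areg was seen in 3.06% of 2611 myeloid cells and 0.1004% of 6974 acinar cells. After thinning the shares were 2.53% of 1658 myeloid cells and 0 of 6860 acinar cells, which allows up to 0.0437%. Fibroblasts held no Areg UMI in 414 cells, which allows up to 0.725% of cells with a UMI, and endothelial cells none in 1016, which allows up to 0.295%.

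Tgfa was highest in CSC-like cells (60.0 CPM, 95% interval 34.3 to 97.4) and stood at 20.9 in luminal Clu cells, 18.4 in basal Wif1 cells and 1.121 in acinar cells. Over glands the CSC-like mean was 59.6 ± 67.3 (SD, n = 8), and 3 of those 8 glands had no Tgfa UMI in these cells. Hbegf was highest in an unnamed cluster led by Duoxa2 (562 CPM). This cluster held 122 cells over 25 glands, too few per gland for a mean over glands. Next for Hbegf were basal cells (362), basal Wif1 cells (327) and pericytes and smooth muscle (237), and acinar cells stood at 10.02. Per gland the order of the named types was another, with means of 399.5 ± 518 in pericytes and smooth muscle (SD, n = 7), 375 ± 246 in basal Wif1 cells (SD, n = 11) and 351 ± 213 in basal cells (SD, n = 18), which did not differ beyond their spread. Btc was highest in the Ascl3 duct progenitors (23.6, 95% interval 15.6 to 34.4), with 14.96 in luminal Clu cells and 0.648 in acinar cells.

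Without the 2 libraries against their sex label, a choice made after the data were seen, the highest named type by pooled CPM was the same for Egfr, Erbb2, Tgfa and Btc. The first place passed to CSC-like cells for Areg (81.5 CPM, against 67.1 in myeloid cells) and for Erbb3 (67.1, against 66.9 in luminal Clu cells), and to basal Wif1 cells for Hbegf (354, against 345 in basal cells). The Tgfa level of CSC-like cells was 43.1 CPM without them, from 9 UMIs.

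**Figure D2:**
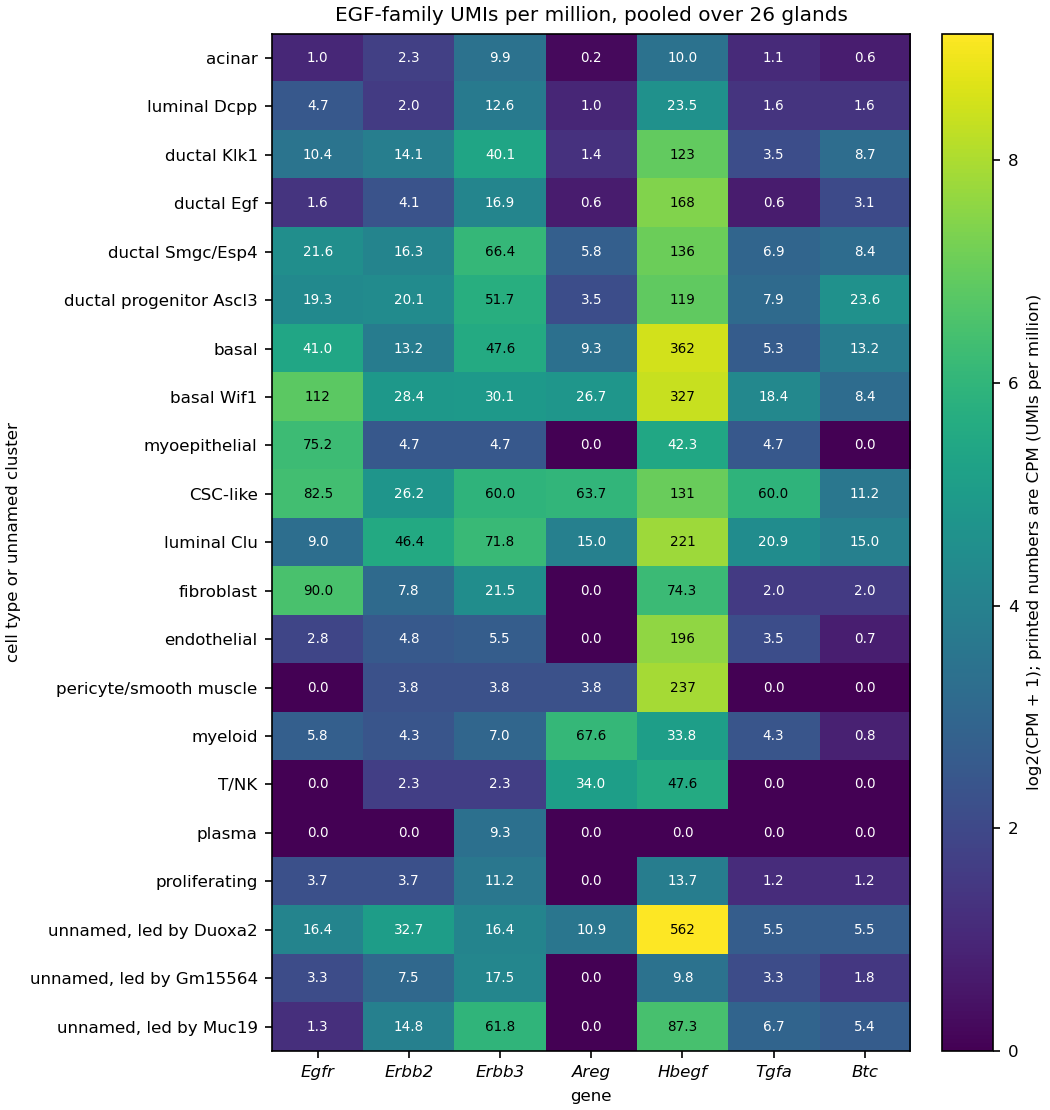
CPM of each gene (columns) in each cell type or unnamed cluster (rows), pooled over 26 glands; colour gives log2(CPM + 1) and the printed numbers are CPM. Egfr is highest in basal Wif1 cells (112), Areg in myeloid (67.6) and CSC-like cells (63.7), and Tgfa in CSC-like cells (60.0).

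The cell types that held these genes differed in frequency between genotypes. Myeloid cells made up 5.57 ± 4.29% of the cells of control glands and 16.1 ± 8.87% of those of double-mutant glands (SD over glands, n = 12 and 14). Basal Wif1 cells were at 0.32 ± 0.31% and 6.24 ± 6.54%, CSC-like cells at 0.0130 ± 0.0450% and 2.31 ± 2.29%, luminal Clu cells at 0.138 ± 0.225% and 4.86 ± 4.21% and fibroblasts at 0.638 ± 0.382% and 2.69 ± 1.40%. Acinar cells were at 38.2 ± 14.98% and 22.5 ± 16.4%. The summed level of 12 myeloid markers, all of which had UMIs, was 84.9 to 2124 CPM in control (median 582) and 739 to 9860 CPM in double-mutant glands (median 2677). In gland totals, more cells of a type and more RNA per cell cannot be told apart, and the sorting of cells can shift these shares.

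Of the Areg UMIs, 51.0% lay in myeloid cells in control glands (25 of 49 UMIs) and 64.8% in double-mutant glands (149 of 230 UMIs). CSC-like cells held 0 of 49 in control and 7.39% in double-mutant glands. For Egfr, basal Wif1 cells held 2.68% of the 149 control UMIs and 22.7% of the 277 double-mutant UMIs, and fibroblasts held 4.03% and 14.4%. For Tgfa, CSC-like, luminal Clu and basal Wif1 cells together held 0 of 49 UMIs in control glands, whereas in double-mutant glands they held 12.4%, 10.9% and 8.53% of 129 UMIs. Acinar cells held 44.9% and 17.8% of the Tgfa UMIs.

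**Figure D3:**
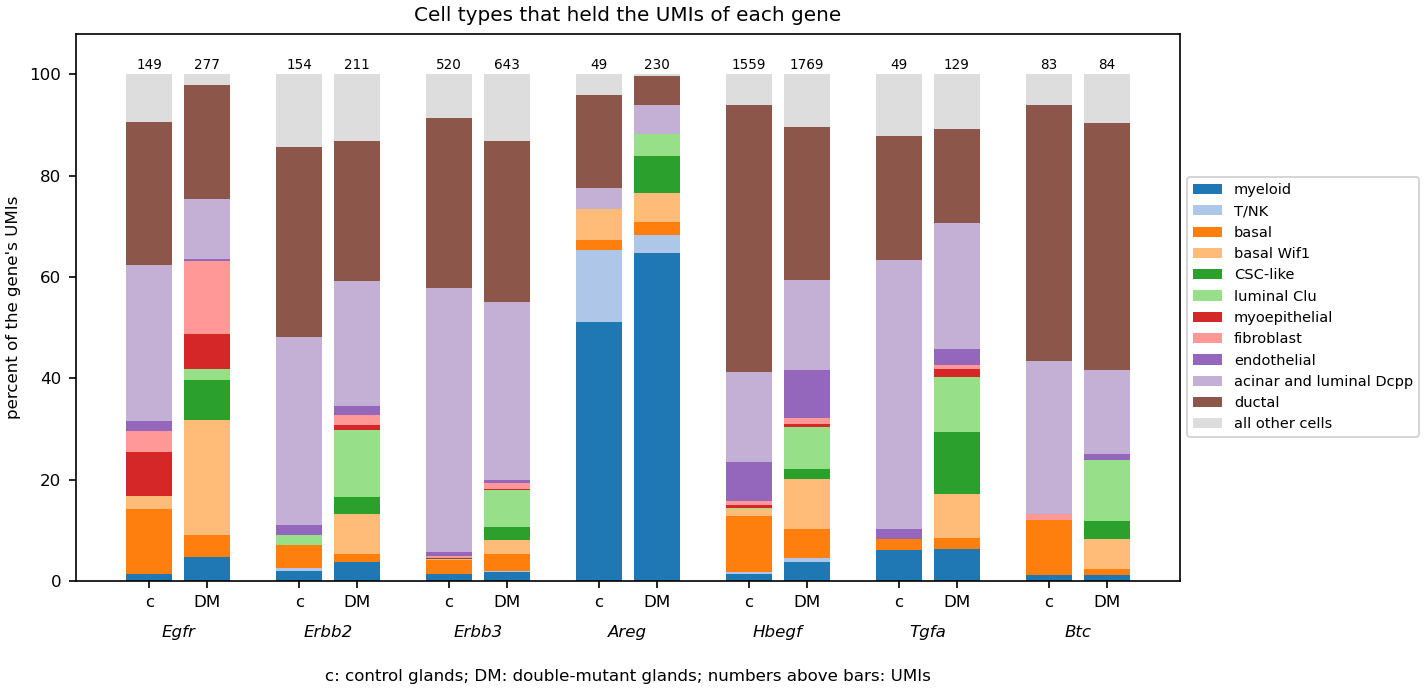
Share of each gene's UMIs (percent, y axis) held by each cell type in control (c) and double-mutant (DM) glands, with the number of UMIs above each bar; each bar sums all glands of a genotype and has no error bar. Myeloid cells hold 51.0% and 64.8% of Areg UMIs, and basal Wif1 cells 2.68% and 22.7% of Egfr UMIs.

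The genotype fit was repeated without up to 5 of the cell types that were more frequent in double-mutant glands, a choice made after the data were seen. Other types that were more frequent there were kept. Among them were fibroblasts (mean 0.638% of control and 2.69% of double-mutant cells), endothelial cells (2.87% and 5.80%) and plasma cells (0.114% and 1.24%). The part of fibroblasts in the Egfr difference was not tested. Without basal Wif1, CSC-like and luminal Clu cells, Egfr was at 0.43 ± 0.25 on the log2 scale (SE; adjusted p = 0.224) and was not called. Areg was at 2.34 ± 0.48 (SE; adjusted p = 0.0018) and was called. Tgfa no longer passed the filter, and without a filter it was at 0.93 (adjusted p = 0.120). These types made up means of only 0.32%, 0.0130% and 0.138% of control cells. Leaving them out thus took Egfr UMIs almost only from double-mutant glands, and 145 control and 186 double-mutant UMIs remained. The fits with and without cell types were not tested against each other. Without myeloid and T/NK cells, Egfr was at 1.04 (adjusted p = 0.0189) and Tgfa at 1.54 (adjusted p = 0.0106). Areg, which then had 17 UMIs in the control group and 73 in the double-mutant group, did not pass the filter, and without a filter was at 1.99 (adjusted p = 0.00104). Without all 5 types no gene of the 7 was called, with Egfr at 0.61 (adjusted p = 0.139) and, without a filter, Areg at 1.31 (adjusted p = 0.190) and Tgfa at 1.118 (adjusted p = 0.0604). Of all genes tested, 18.6%, 13% and 6.86% were called in these 3 fits with a filter, and 9.39%, 8.08% and 5.77% without one, against 22% and 9.98% with all cells.

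**Figure D4:**
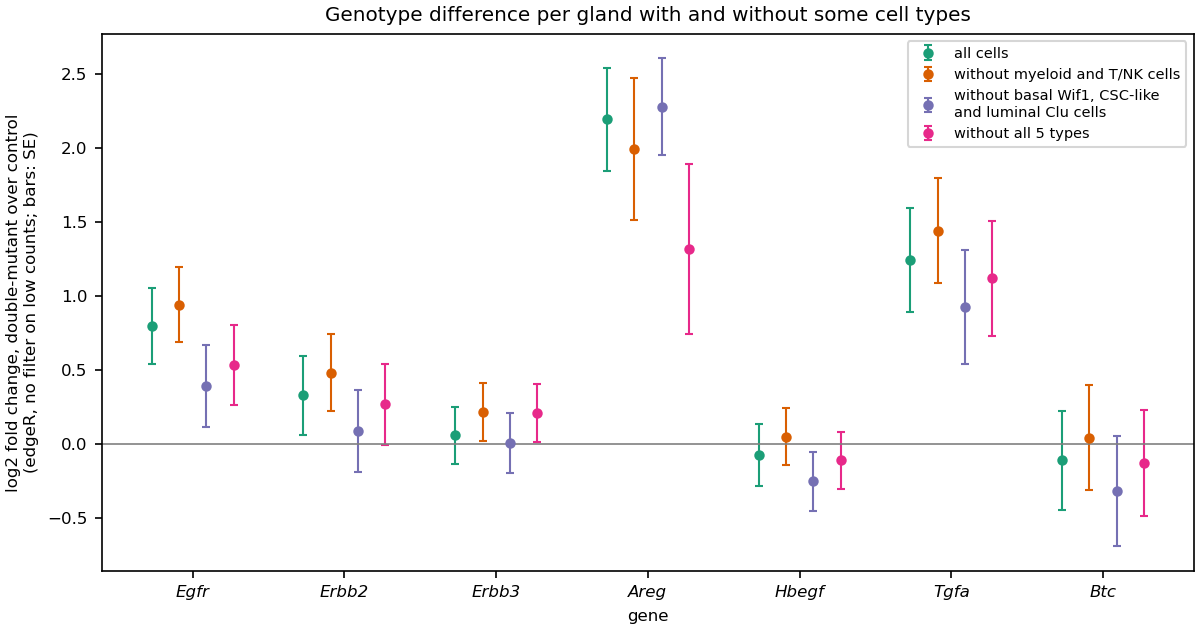
Fitted log2 fold change (double-mutant over control, y axis; bars are SE) of each gene (x axis) per gland with all cells and without some cell types, without a filter on low counts so that every gene has a value. Areg falls from 2.19 with all cells to 1.31 without all 5 types, and Egfr from 0.80 to 0.39 without basal Wif1, CSC-like and luminal Clu cells. The types left out were rarer in control glands, and the fits were not tested against each other.

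Within single cell types, 12 types had at least 3 glands of each genotype with 10 or more cells. Of the 10 pairs of member and type that passed the filter, which were those of Hbegf in 7 types and Erbb3 in 3, edgeR called 0, with 2 at an unadjusted p under 0.05, and DESeq2 called 1. That pair was Hbegf in acinar cells. It ran from 3.29 through 7.98 to 14.8 CPM in 12 control glands and from 0 through 11.97 to 51.5 CPM in 14 double-mutant glands, a log2 difference of 1.07 ± 0.32 (SE; adjusted p = 0.0750 by edgeR, 0.0454 by DESeq2), beside 2.41% of genes called in acinar cells by edgeR and 3.46% by DESeq2. In the other types with a tested member the share called was 0% to 3.24%, namely 3.24% in Smgc/Esp4 duct cells, 1.03% in Klk1 duct cells, 0.627% in luminal Dcpp cells, 0.0998% in endothelial cells and 0% in basal and Egf-producing duct cells. It passed in edgeR without control replicate 1, double-mutant replicate 3 or double-mutant replicate 4 of P40, or without double-mutant replicate 7 of P90 (1.14 to 1.24, adjusted p = 0.0211 to 0.0495). In duct cells of the Egf-producing type, Hbegf was lower by a log2 difference of -1.24 ± 0.36 (SE; adjusted p = 0.215), over 9 control and 3 double-mutant glands.

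Areg in myeloid cells was too sparse for the filter. Its level was 28.3 CPM in the myeloid cells of control glands (25 UMIs in 605 cells, 95% interval 18.3 to 41.7) and 88.2 CPM in those of double-mutant glands (149 UMIs in 2006 cells, 74.6 to 104). Per gland it ran from 0 through 15.8 to 124 CPM in 10 control glands, 4 of them at 0, and from 0 through 80.0 to 385 CPM in 14 double-mutant glands, 1 of them at 0. Without a filter the log2 difference was 1.36 ± 0.39 (SE; adjusted p = 0.0288), beside 1.99% of genes called. In none of the 15 other fits of myeloid cells in which Areg passed the filter, each with other glands or settings, was it called (0.95 to 1.29, adjusted p = 0.121 to 0.337).

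In the CITE-seq libraries, in which 2 glands per genotype were measured at P70, Areg was at 2.43 and 11.8 normalised CPM in control and at 19.9 and 20.4 in double-mutant glands. The log2 difference was 1.55 ± 0.59 (SE; adjusted p = 0.113), and it passed only without control replicate 1 (2.96, adjusted p = 0.0271) among the fits with 1 library left out. In such a fit 1 genotype is a single library, whose spread is taken to be that of the other genotype, and its p-values say little on stability. Erbb3 was at 20.6 and 27.3 in control and at 3.40 and 9.95 in double-mutant glands, and was lower in double-mutant glands by a log2 difference of -1.74 ± 0.47 (SE; adjusted p = 0.0455). It was the 1 member called of 3 tested, beside 13.7% of 10058 genes. The call was lost with library totals (-1.03, adjusted p = 0.129), with DESeq2 (-1.80, adjusted p = 0.146) and with all barcodes (-1.69, adjusted p = 0.0720), and with 1 library left out the difference was -2.80 to -1.27 (adjusted p = 0.0621 to 0.189). The makeup of these libraries moved with it. The summed level of 7 plasma cell markers was 2873 to 3786 CPM in control and 64839 to 83784 in double-mutant libraries, that of 5 erythroid markers 57.6 to 174 and 11636 to 20243, that of 12 myeloid markers 2810 to 3796 and 12773 to 15654, and that of 10 Klk1 duct markers 6499 to 6617 and 1188 to 1610. Their part in the Erbb3 difference was not tested. Hbegf was at 0.79 ± 0.36 (SE; adjusted p = 0.174), and Egfr, Erbb2, Tgfa and Btc, with 0 to 14 UMIs per library, did not pass the filter. These libraries held UMIs of both Xist and Y-linked genes, 151 to 193 and 14 to 71 per library, whichever sex was labelled. Control replicate 1 was labelled male and the other libraries female, so that sex was not balanced between genotypes, and it was not a term of the fit. That replicate held 151 Xist and 60 Y-linked UMIs, which went against its label.

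The bulk libraries held 34515744 counts in control and 34729551 in double-mutant tissue, with 1 library per genotype at different ages, so no test was made. Areg had 0 counts in both, which allows up to 0.0869 and 0.0864 CPM. In the Drop-seq glands its means were 1.81 (control) and 9.20 (double-mutant) normalised CPM, a level that the bulk tissue did not show. The bulk RNA came from freshly dissected glands without further processing, whereas the Drop-seq cells had been dissociated and sorted. The part of these steps in the Areg level was not tested. Tgfa had 167 counts in control and 224 in double-mutant tissue, a ratio of 1.35 on the TPM scale (counts per length, scaled to an equal sum per library), and Hbegf 35 and 87, a ratio of 2.51. Egfr had 458 and 256 (ratio 0.564), Erbb2 763 and 498 (ratio 0.658) and Erbb3 2129 and 1577 (ratio 0.747), so that these receptor genes were lower in the double-mutant library. For Egfr this was opposite in direction to the Drop-seq glands. The Drop-seq log2 differences of Erbb2 and Erbb3 were also positive, at 0.38 and 0.09 with TMM (not called) and 1.19 and 0.72 with library totals (called). Both bulk libraries were labelled female, whereas the Drop-seq glands were of both sexes. Btc had 45 and 27 counts, with overlapping Poisson intervals.

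The 68 genes of the pathway list were read beside the members to see what else of the cascade moved. Of these, 59 were tested in the genotype fit, 17 rose and 3 fell, and their median log2 fold change was 0.32 against 0.02 over all genes tested. Of all genes 14.4% rose and 7.56% fell, so that the 17 that rose should be read against 14.4%, as should the counts by group that follow, of which those of adaptors and of inhibitors lie close to it. Among 7 genes of ligand release and partners, 5 rose: Rhbdf2 (log2 fold change 1.19 ± 0.29, SE; adjusted p = 0.00602) and Rhbdf1 (0.96), which carry ADAM17 to the cell surface, Adam17 itself (0.98), the protease that releases amphiregulin and TGF-α, Adam9 (0.58) and Adam10 (0.58). Cd9, a tetraspanin that associates with the Hbegf precursor, fell by 0.44. Of 5 ligand genes tested, Egf fell by 2.02 ± 0.56 (SE; adjusted p = 0.0130), from 1715 ± 2361 normalised CPM in control (SD, n = 12) to 172 ± 311 in double-mutant glands (SD, n = 14), and was also higher in males. Duct cells of the Egf-producing type were less frequent as well. Their median share was 6.02% of the cells of control glands (0.125% to 38.6%) and 0.488% in double-mutant glands (0% to 7.59%). The part of this cell type in the fall of Egf was not tested. The other 6 ligand genes, among them Ereg and Nrg1, did not pass the filter, nor did the receptor gene Erbb4.

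Of 14 adaptor and kinase genes, Mapk3 (1.04 ± 0.27, SE), the gene of the MAP kinase ERK1, and the docking protein gene Gab2 (1.01 ± 0.29) rose and the phosphatase gene Ptpn11 fell by 0.39, while Grb2 (0.43) did not pass the test. Of 19 genes of feedback and inhibition, Spry1 (1.13), Spred1 (0.59) and the receptor phosphatase gene Ptprj (0.69) rose, and Dusp6 (0.03) and Errfi1 (-0.52) did not pass. Of 11 target genes, 4 rose: the ETS factor gene Etv5 (2.16 ± 0.46, SE; adjusted p = 0.00242), Plaur (1.46), the urokinase receptor gene, Ier3 (0.90) and Egr1 (0.52). Fos (-0.07), Myc (0.04) and Ccnd1 (-0.15) did not pass. Scaling by library totals left Cd9 and Ptpn11 no longer lower (log2 fold change of 0.18 and 0.20, not called).

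**Figure D5:**
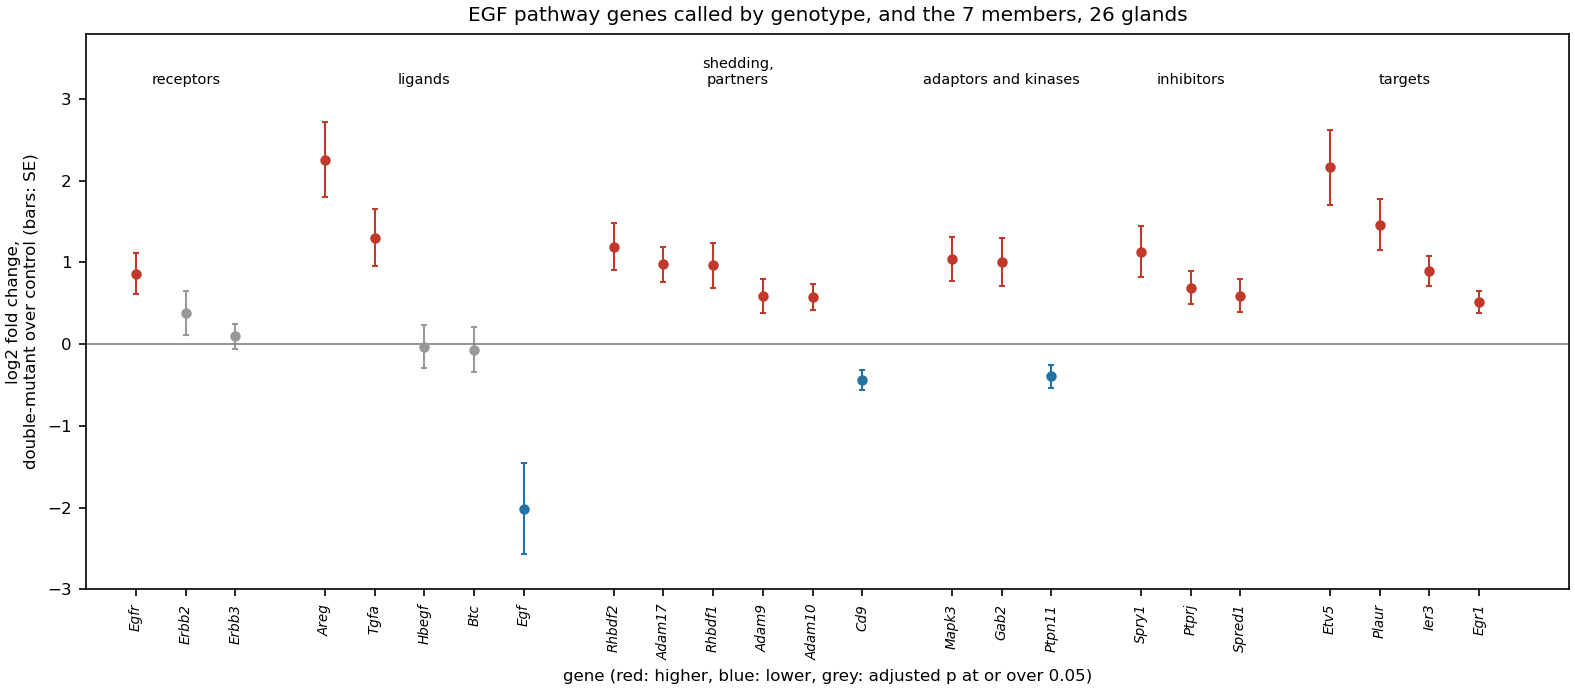
Log2 fold change between double-mutant and control glands (y axis; bars are SE) of the genes of the EGF pathway list that were called by genotype, with all 7 members (x axis), grouped by role; red points rose and blue points fell at an adjusted p under 0.05, and grey points are members that did not pass. In all 17 genes rose and 3 fell, with Areg (2.26) and Etv5 (2.16) highest and Egf (-2.02) lowest.

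Genes whose pooled levels over the 18 named types were most like those of each member were ranked by Pearson's r on log2(CPM + 1) among 6547 genes. These correlations are a description, over types that share glands and depth. Egfr was most like Mir99ahg (r = 0.88), Erbb2 like Hook2 (0.93), Erbb3 like C77080 (0.90), Areg like Cdk6 (0.83), Hbegf like Tnks1bp1 (0.94), Tgfa like Rmdn3 (0.89) and Btc like Elf3 (0.94). Between members, Erbb3 and Btc had the highest r (0.95) and Egfr and Areg the lowest (0.22).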

How the data were processed

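Cells of submandibular glands were profiled by Drop-seq (26 glands), CITE-seq (RNA of 4 glands) and bulk RNA-seq (2 libraries). The tables deposited by the authors hold UMI counts per gene and barcode, made with Drop-seq tools and STAR on mm10 with GENCODE vM7, and the bulk tables hold the authors' featureCounts counts per gene. Barcodes with at least 100 genes and under 15% mitochondrial UMIs were kept (in CITE-seq also under 2500 genes). UMIs were summed per gland and tested with edgeR 4.0.16 (quasi-likelihood, TMM, filterByExpr, Benjamini-Hochberg adjustment over all genes), with DESeq2 1.42.0 as an alternative. The gland was the replicate. The labels do not say whether each gland came from a separate mouse, so n counts glands, and p-values measure only the spread between glands. Depth was 650301 to 6994504 UMIs per gland. On simulated data for the genotype fit (9914 genes), 21.7% of genes changed 2-fold and 96.4% of those changed 4-fold were recovered. Only genes with at least 100 UMIs were changed, all genes shared the same spread, and the mix of cell types did not vary. Recovery was counted among changed genes that passed the filter, so these shares need not hold for the real glands.

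Cells were clustered with scanpy 1.11.5 (2000 variable genes, 30 components, Leiden resolution 1) and named from marker lists, and the splits of basal cells by Wif1 and from myoepithelial cells were set after the clusters were seen. Scrublet marked 119 of 23346 cells (0.510%) as doublets, which were kept, and left out in an alternative. Intervals are exact at 95%, and like the limit that a count of 0 allows (3 counts) they cover counting error only. Members and gene lists were chosen with earlier results of these data known. All 7 members were named, and of the pathway list each gene called by genotype and up to 4 others per group. Other tests, normalisations, filters, clusterings, cell sets and glands left out were tried. Antibody counts of the CITE-seq libraries were not used here. Of the pathway list, 1 gene is counted but not reported here.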

Additional observations from a re-analysis of the deposited data

Results flagged for a closer look

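In groups of 6 or 7 glands, the highest or lowest gland was compared with its nearest neighbour by Dixon's ratio for each member, and 5 of 28 groups held a gland that stood apart, where chance alone flags about 1 in 20. Control replicate 2 at P90 stood above the other control glands of that stage in Erbb2 (11.5 normalised CPM, where the other 5 ended at 5.52) and in Erbb3 (27.7, where they ended at 17.3). In Areg, control replicate 5 at P90 stood at 8.44 normalised CPM, from 17 UMIs, and the next gland was at 3.08. Its myeloid cells held 12 of those 17 UMIs. Among double-mutant glands at P40, replicate 1 stood highest in Hbegf (91.3 normalised CPM, where the next gland was at 54.9), and it is 1 of the 2 libraries that went against their sex label. Replicate 2 stood lowest in Erbb3 (11.2 normalised CPM, where the next gland was at 17.4) and, with 46 UMIs, was the gland with the most Egfr UMIs. With each of the 26 glands left out in turn, these included, Areg, Tgfa and Egfr were called by genotype in every fit. Their log2 fold changes were 2.05 to 2.66, 1.13 to 1.39 and 0.75 to 0.92, beside 15.5% to 30.5% of all genes called.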

How the results depend on the processing

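Of the 7 genes, 3 were called by genotype. The same 3 were called with each of the 26 glands left out, among them double-mutant replicate 4 of P90 (15.5% to 30.5% of all genes called). The number was 5 with library totals (53.2% of all genes called), 1 without covariates (Egfr, with 4 of the 7 tested; 22.1%) and 0 with each gland thinned to 650301 UMIs, where only 2 of the 7 could be tested (20%). Without basal Wif1, CSC-like and luminal Clu cells it was 1 with and 1 without a filter, and without all 5 cell types 0 and 0. Genes that were not called changed sign. Hbegf, at -0.03, was at 0.000667 with DESeq2, 0.000689 with its size factors, 0.61 with library totals and 0.12 (0.0488 without a filter) without myeloid and T/NK cells, and at -0.16 to 0.15 with 1 gland left out. Btc, at -0.07, was at 0.56 with library totals, 0.48 with the batch term and 0.12 (0.0417 without a filter) without myeloid and T/NK cells, and at -0.22 to 0.0144 with 1 gland left out. Erbb3 was at -0.0683 with the batch term. At P40 the number called was 1 with DESeq2 (6.4% of all genes) and without a filter (4.49%), Areg both times. It was 2 with library totals (Egfr and Areg; 19.7%) and 0 to 1 with 1 gland left out (0.126% to 4.68%). At P90, where it was 2, it was 1 with all barcodes (6.42%), 0 thinned (8.32%) and 0 without the libraries against their sex label (3.31%). With 1 gland left out it was 0 to 3 at P90 (3.44% to 16.3%). Egfr was called at P90 with DESeq2 (1.15, adjusted p = 0.0416) and library totals (1.76, adjusted p = 0.0463). The difference between stages for Areg ran from -0.83 to 0.48 with 1 gland left out and turned without control replicate 5 of P90. In CITE-seq the number was 0 with DESeq2 (6.4% of all genes against 13.7%), 2 with library totals (30.9%), 2 without a filter (9.96%), 0 with all barcodes (4.27%) and 0 to 1 with 1 library left out. Within cell types, where it was 0 (1.85% of all pairs of gene and type called), it was 1 with DESeq2 (3.45%) and 2 without a filter (0.559%). It was 1 at resolution 0.7 (2.81%) and 0 to 1 with 1 gland left out. By thinned shares of cells, 4 of 7 genes kept the named type that was highest by mean over glands (not Egfr, Erbb3 and Hbegf), and 5 of 7 the one highest by pooled CPM (not Egfr and Erbb3). The cause of these changes was not tested, except that thinning and leaving out cells reduce the genes that can be tested.

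Replicate numbers did not pair the glands: same-numbered glands of different groups correlated with a median of 0.06 over 37 pairs, and 7 of 26 glands correlated best with their own number. With the replicate block, 3998 of 13536 genes (29.5%) were called by genotype in place of 2308 of 10488, Areg, Tgfa and Egfr stood at 2.45, 1.36 and 0.89, and at P40 the number called was 1 (Areg, 2.63, adjusted p = 0.0223; 6.82% of all genes). Depth limits Tgfa, Areg and Btc most, with 49, 49 and 83 UMIs in all control glands.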
